A study of Mus musculus with 16 samples.

Results

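The 45 genes described here drive or mark the cell cycle: 4 act in G1 phase, 12 in DNA synthesis (S phase) and 29 in mitosis. They were measured in mouse heart ventricle on 16 arrays that covered 11058 features in all. Each of the 45 had at least 1 probe, and 35 had a probe whose heart signal was well above background on 4 or more arrays: 4 of the G1, 11 of the S phase and 20 of the mitotic genes. The other 10 members, 9 mitotic genes and Hells, did not pass that filter and are described at the end.

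The hearts came from 129Sv mice, either wild-type or CHIP-/-, which lack the co-chaperone and ubiquitin ligase CHIP (gene Stub1). Mice underwent trans-aortic banding (TAB) or sham surgery. Banding narrows the aorta and loads the left ventricle with pressure; hearts were taken 1 week later. The groups were thus wild-type sham, wild-type TAB, CHIP-/- sham and CHIP-/- TAB, with 4 biological replicates each. Every array set Cy5-labelled heart RNA against Cy3-labelled reference RNA from the whole bodies of neonatal mice of mixed 129Sv and C57BL/6 strain, and each value is the log2 ratio of heart over that reference. The animals' age and sex, and the cells in which CHIP is missing, are not given in the labels used here.

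As background, a cell enters the cycle when D-type cyclins and Cdk4 or Cdk6 release E2F transcription factors, which turn on the genes of nucleotide supply and DNA replication. Genes of mitosis follow later under the MuvB complex with B-Myb and Foxm1, which acts through short CHR elements in their promoters. Adult heart muscle cells seldom divide, whereas fibroblasts, endothelial cells and macrophages of the heart can proliferate under pressure load. In RNA from whole tissue, more cells of a type and more RNA per cell cannot be told apart.

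Stub1, the targeted gene, averaged 0.19 on the wild-type arrays and -1.32 on the CHIP-/- arrays, and the lowest wild-type value (-0.41) lay above the highest CHIP-/- value (-1.17). The heart channel had 27.0% to 37.7% of spots well above background, and arrays of a group correlated at 0.956 to 0.982 across features. The 4 arrays of a group filled 1 slide, and no slide carried a second group; effects of slide and of group cannot be told apart. Myl7, an atrial light chain, was high on 3 sham arrays, with log2 ratios of 3.82 and 1.89 for wild-type replicates 1 and 3 and 2.22 for CHIP-/- replicate 1; elsewhere it ran from -1.99 to 0.17. Of the 16 arrays, 3 had Y-linked transcripts well above background, all after sham surgery: replicate 4 of wild type and replicates 2 and 4 of CHIP-/-. Counts without these arrays are given beside the results.

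Most of the tested members were higher after banding in both genotypes, the mitotic genes by the most, and none was called lower. The members were chosen with earlier results of these data known, so the shares of all features beside them serve as a description only. In wild-type hearts 28 of the 35 rose, beside 18.7% of all features (2064 of 11058) that rose and 17% that fell in the same comparison. In CHIP-/- hearts 30 of the 35 rose, beside 24% of all features (2657 of 11058) that rose and 23.2% that fell. By role, 1 of 4 G1 genes, 8 of 11 S phase genes and 19 of 20 mitotic genes rose in wild type, and 1, 9 and 20 rose in CHIP-/-. The median log2 difference was 0.11 for G1, 0.34 for S phase and 0.74 for mitotic genes in wild type, and 0.19, 0.43 and 0.81 in CHIP-/-, where the median of all features was 0 and -0.01. The lowest TAB array lay above the highest sham array for 27 members in wild type, beside 16.6% of all features, and for 27 in CHIP-/-, beside 21.8%. Mki67, Cks2 and Birc5 led in both genotypes.

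The filter itself bears on these counts. Rrm2, Cdk1, Nusap1, Tpx2 and Tacc3 were well above background on no sham array and entered only through the TAB groups where they were high. Ccna2 and Ube2c were well above background on some sham arrays, but on too few to reach 4 without the TAB arrays. With no filter, 30 of all 45 members rose in wild type and 29 in CHIP-/-, among them 22 and 19 of 29 mitotic genes, whose medians were then 0.57 and 0.61. Of the 24 members well above background on all 16 arrays, 20 rose in wild type and 22 in CHIP-/-, among them 11 and 12 of 12 mitotic genes.

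The counts depended on the scaling of the arrays and on the sham arrays. Median centring of each array in place of loess moved the median difference of all features to -0.19 in wild type and -0.22 in CHIP-/-, and lowered the share of all calls that were upward from 52.3% to 8.75% and from 50.9% to 12.3%. Under it 16 members rose in wild type and 21 in CHIP-/-. The mitotic median was then 0.66 (wild type) and 0.73 (CHIP-/-) above the median of all features, and the S phase median 0.27 and 0.33 above it. Without the 3 sham arrays of high Myl7, which leaves 2 wild-type sham arrays, 21 members rose in wild type and 31 in CHIP-/-. Calls among all features, in either direction, then fell from 3948 to 2533 in wild type and from 5225 to 4798 in CHIP-/-. Without the 3 sham arrays with Y-linked transcripts, 28 and 26 members rose, and calls among all features fell to 3620 and 4062.

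**Figure D1:**
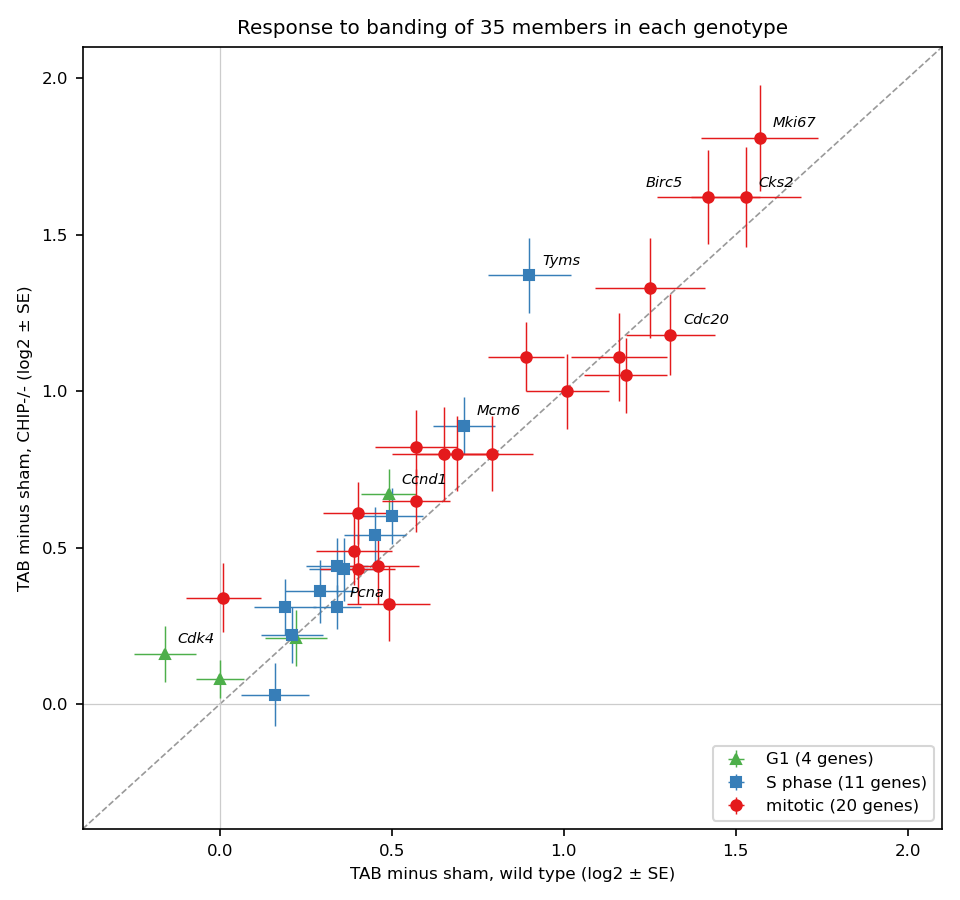
Log2 difference between TAB and sham in wild type (horizontal axis) and in CHIP-/- (vertical axis) for the 35 tested members, with standard errors of limma's fit as bars; the dashed line marks equal values. Mitotic genes (circles) reach 1.57 and 1.81 (Mki67), S phase genes (squares) reach 0.90 and 1.37 (Tyms), and G1 genes are triangles; Tyms lies farthest above the dashed line, by 0.47.

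The promoters of the members with the largest rise are shown first, since S phase and mitotic genes have known control elements of their own. A RefSeq table of promoters (build GRCm38.p6) held entries for 28 of the 35 tested members, and none for Ccna2, Ccnd1, Ccnd2, Kif20a, Mcm4, Stmn1 and Tpx2. The 250 bases before each start site were searched on both strands for the CCAAT box (letters CCAAT), the CHR element (TTTGAA) and an E2F site (TTTNNCGC). Shown 5′ to 3′ are 2 S phase and 4 mitotic members, with matches to any of the 3 motifs in capitals. The stretches are chr5:30073646-30073875 for Tyms, chr1:128359706-128359955 for Mcm6, chr7:135716451-135716629 for Mki67 and chr4:118437344-118437593 for Cdc20, all on the minus strand, and chr11:117848987-117849236 for Birc5 and chr13:51644982-51645231 for Cks2 on the plus strand. The 20 bases of Tyms and the 71 of Mki67 nearest the start lie inside the gene's annotated span and are left out.
Tyms: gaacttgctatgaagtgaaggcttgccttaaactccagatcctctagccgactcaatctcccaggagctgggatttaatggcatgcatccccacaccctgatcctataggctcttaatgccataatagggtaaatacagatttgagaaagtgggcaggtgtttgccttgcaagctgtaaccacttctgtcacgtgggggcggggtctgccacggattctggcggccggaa
Mcm6: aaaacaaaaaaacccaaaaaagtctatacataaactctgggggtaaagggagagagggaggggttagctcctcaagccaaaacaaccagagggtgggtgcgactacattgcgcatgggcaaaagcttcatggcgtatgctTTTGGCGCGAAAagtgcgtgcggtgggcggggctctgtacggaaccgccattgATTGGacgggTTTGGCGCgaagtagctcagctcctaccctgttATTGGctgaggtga
Mki67: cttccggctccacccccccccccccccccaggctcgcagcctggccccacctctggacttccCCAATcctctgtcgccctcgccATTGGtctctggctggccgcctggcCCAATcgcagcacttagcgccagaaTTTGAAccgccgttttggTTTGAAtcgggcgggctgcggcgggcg
Birc5: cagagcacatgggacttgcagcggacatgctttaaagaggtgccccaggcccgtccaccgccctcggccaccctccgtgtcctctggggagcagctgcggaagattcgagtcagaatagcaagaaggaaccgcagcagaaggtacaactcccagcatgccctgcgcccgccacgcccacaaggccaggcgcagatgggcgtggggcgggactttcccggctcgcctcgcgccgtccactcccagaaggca
Cks2: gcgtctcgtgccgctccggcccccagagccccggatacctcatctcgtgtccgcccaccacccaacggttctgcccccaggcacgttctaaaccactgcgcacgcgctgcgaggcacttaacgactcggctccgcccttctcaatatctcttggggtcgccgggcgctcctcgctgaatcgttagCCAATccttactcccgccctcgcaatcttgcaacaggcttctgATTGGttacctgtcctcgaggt
Cdc20: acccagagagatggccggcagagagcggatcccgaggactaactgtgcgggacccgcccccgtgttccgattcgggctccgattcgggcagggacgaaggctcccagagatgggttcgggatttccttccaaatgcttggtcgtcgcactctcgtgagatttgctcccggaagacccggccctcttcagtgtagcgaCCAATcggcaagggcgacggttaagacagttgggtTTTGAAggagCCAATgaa

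Mki67 holds 3 CCAAT boxes at 188, 166 and 141 bases before the start and 2 CHR elements at 116 and 98. Cdc20 holds 2 CCAAT boxes, at 53 and 8 bases, with a CHR element at 18 bases between them. Cks2 has 2 CCAAT boxes, at 65 and 22 bases, and no CHR match. Mcm6 has 2 CCAAT boxes, at 57 and 14 bases, and 3 E2F matches, of which those starting at 110 and 106 bases overlap. The stretches of Tyms and Birc5 hold none of these letters.

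Over all tested members with an entry, a CCAAT box lay in 13 of 16 mitotic and 8 of 10 S phase promoters, against 36.5% of the 7980 promoters of genes tested on the arrays and 34.5% of all 27025 in the table. The CHR letters lay in 6 of 16 mitotic and 1 of 10 S phase promoters, against 10.3% and 16.3%. Each of those 6, Ccnb2, Cdc20, Cdk1, Kif22, Mki67 and Ube2c, also held a CCAAT box, a pairing found in 4.07% of the promoters of tested genes. The E2F letters lay in 3 of 10 S phase promoters (Mcm5, Mcm6 and Mcm7) and in 1 of 16 mitotic ones (Cdk1), against 7.14% and 4.39%. These shares are descriptions of letters within 250 bases.

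Of the G1 genes, only Ccnd1 rose. Ccnd1 encodes cyclin D1, the regulatory partner of Cdk4 and Cdk6. Its log2 ratios were -0.77, -0.53, -0.67 and -0.45 on the wild-type sham arrays and -0.13, -0.22, 0.04 and -0.16 after TAB. In CHIP-/- they were -0.82, -0.84, -0.82 and -0.71 after sham and -0.17, -0.13, 0.01 and -0.23 after TAB. Sham and TAB arrays did not overlap in either genotype. The difference was 0.49 (SE 0.08, adjusted p = 5.3e-05), or 1.40-fold, in wild type and 0.67 (SE 0.08, adjusted p = 4e-07), or 1.59-fold, in CHIP-/-. With median centring the wild-type value was 0.23 and no longer passed the test (adjusted p = 0.091).

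Ccnd2, cyclin D2, gave ratios between 0.17 and 0.19 on the wild-type sham arrays, and 0.09, 0.21 and 0.23 on the 3 wild-type TAB arrays with a value; the spot of wild-type TAB replicate 1 was an outlier and dropped from the fit. In CHIP-/- the ratios were 0.25, 0.11, -0.07 and 0.14 after sham and 0.27, 0.10, 0.16 and 0.23 after TAB. The groups overlapped throughout, and neither difference passed the test (0.00 with SE 0.07 in wild type, 0.08 with SE 0.06 in CHIP-/-). Another of its 3 probes was called lower in both genotypes (-0.27, adjusted p = 0.00059, and -0.17, adjusted p = 0.016), so the direction for Ccnd2 depends on the probe.

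Ccne1, cyclin E1, which carries cells from G1 into S phase, differed by 0.22 (SE 0.09, adjusted p = 0.054) and 0.21 (SE 0.09, adjusted p = 0.057), at the edge of the threshold. It passed in wild type without wild-type sham replicate 2 (0.27), CHIP-/- sham replicate 2 (0.22), wild-type TAB replicate 2 (0.27) or CHIP-/- TAB replicate 3 (0.22), and in CHIP-/- without CHIP-/- sham replicate 2 (0.27) or CHIP-/- TAB replicate 2 (0.24). Cdk4, the kinase that cyclin D activates, was -0.16 (SE 0.09) in wild type and 0.16 (SE 0.09) in CHIP-/-, and neither passed. It was called lower in wild type with median centring (-0.34, adjusted p = 0.011) and in the deposited series table (-0.46, adjusted p = 0.034).

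Among the S phase genes, Tyms moved the most. Tyms encodes thymidylate synthase, which makes the thymidine nucleotide for DNA. Wild-type sham ratios were -1.66, -1.16, -1.59 and -1.19, and wild-type TAB ratios -0.57, -0.64, -0.29 and -0.51. The CHIP-/- arrays gave -1.57, -1.79, -1.42 and -1.76 after sham and -0.14, -0.29, -0.03 and -0.61 after TAB. All TAB arrays lay above all sham arrays, and CHIP-/- TAB replicate 4 was the lowest of its group. Tyms rose by 0.90 (SE 0.12, adjusted p = 6.4e-06; 1.86-fold) in wild type and by 1.37 (SE 0.12, adjusted p = 6.5e-09; 2.58-fold) in CHIP-/-. Its other probe gave 0.68 and 1.08, both called.

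The replication genes Mcm2 to Mcm7 encode the subunits of the helicase that opens DNA at replication origins, and they differed among themselves. Mcm6 had sham ratios of -2.33, -1.94, -2.18 and -2.08 in wild type and -2.13, -2.23, -2.19 and -2.27 in CHIP-/-, and TAB ratios of -1.30, -1.52, -1.30 and -1.59 and of -1.31, -1.25, -1.16 and -1.53. It rose by 0.71 (SE 0.09, adjusted p = 1.4e-06; 1.63-fold) and 0.89 (SE 0.09, adjusted p = 1.6e-08; 1.86-fold), with no overlap of sham and TAB. Mcm3 had sham ratios of -1.15, -1.07, -1.13 and -1.0 in wild type and -1.04, -1.15, -1.07 and -1.02 in CHIP-/-, and TAB ratios of -0.53, -0.72, -0.39 and -0.74 and of -0.57, -0.42, -0.18 and -0.72. It rose by 0.50 (SE 0.09, adjusted p = 0.00018) and 0.60 (SE 0.09, adjusted p = 1.1e-05). With median centring its differences were 0.20 and 0.23 and not called, and a dimmer Mcm3 probe, above background on 5 arrays, gave 0.06 in wild type, not called, and 0.37 in CHIP-/-, called.

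The other subunits moved less. Mcm7 rose by 0.29 (SE 0.10, adjusted p = 0.031) and 0.36 (SE 0.10, adjusted p = 0.0053). Its wild-type call was lost without wild-type sham replicate 1 (0.26) or 3 (0.23), or wild-type TAB replicate 3 (0.21) or 4 (0.27), and with Feature Extraction's processed intensities (0.36, adjusted p = 0.064) or the deposited series table (0.34, adjusted p = 0.082). With median centring Mcm7 was at 0.01 (adjusted p = 0.94) in wild type and 0.03 (adjusted p = 0.85) in CHIP-/-, and neither was called. Mcm5 rose in CHIP-/- (0.31, SE 0.09, adjusted p = 0.0066), while its wild-type difference of 0.19 (SE 0.09, adjusted p = 0.10) missed the threshold and passed without wild-type TAB replicate 1 (0.26). With median centring the CHIP-/- call of Mcm5 was lost (0.03, adjusted p = 0.82). Mcm4 was at 0.21 (SE 0.09, adjusted p = 0.071) and 0.22 (SE 0.09, adjusted p = 0.053). In wild type it passed without CHIP-/- TAB replicate 4 (0.21), and in CHIP-/- without CHIP-/- sham replicate 1 or 3 (0.26 each), wild-type TAB replicate 3 (0.22) or CHIP-/- TAB replicate 4 (0.32). Mcm2 was at 0.16 (SE 0.10, adjusted p = 0.21) and 0.03 (SE 0.10, adjusted p = 0.80), with overlapping groups.

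Pcna encodes the sliding clamp that holds DNA polymerase on the template. Its sham ratios were -1.13, -1.06, -1.14 and -1.14 in wild type and -1.05, -1.16, -1.14 and -1.16 in CHIP-/-. After TAB they were -0.71, -0.90, -0.59 and -0.91 in wild type and -0.84, -0.71, -0.71 and -1.01 in CHIP-/-, all above the sham arrays of the same genotype. The differences were 0.34 (SE 0.07, adjusted p = 0.00099; 1.27-fold) and 0.31 (SE 0.07, adjusted p = 0.0017; 1.24-fold). With median centring they were 0.03 and -0.07, and neither passed.

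Of the enzymes of nucleotide supply, the thymidine kinase Tk1 rose by 0.45 (SE 0.09, adjusted p = 0.00032) and 0.54 (SE 0.09, adjusted p = 2.1e-05). Rrm1, the large subunit of ribonucleotide reductase, rose by 0.34 (SE 0.09, adjusted p = 0.0049) and 0.44 (SE 0.09, adjusted p = 0.00038). Rrm2, the small subunit, was well above background on no sham array, on 1 wild-type TAB array and on 3 CHIP-/- TAB arrays. For such a gene the fold sets the TAB signal against the higher of the dim signal itself and the lowest signal among probes well above background. This fold is taken from the heart channel alone, so it can differ from the ratio and is open to differences in dye labelling between arrays. It is an estimate without allowance for error, so the true fold can be smaller or larger. Each adjusted p beside such a fold is limma's, for the ratio. In the heart channel Rrm2 was 1.26-fold higher in wild type (adjusted p = 0.0064) and 1.28-fold higher in CHIP-/- (adjusted p = 0.00094). The wild-type calls of Tk1 (0.22), Rrm1 (0.08) and Rrm2 (0.18) and the CHIP-/- call of Rrm1 (0.12, adjusted p = 0.43) were lost with median centring, and the wild-type calls of Mcm7, Rrm1 and Rrm2 without the sham arrays of high Myl7 (0.16, 0.29 and 0.32).

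**Figure D2:**
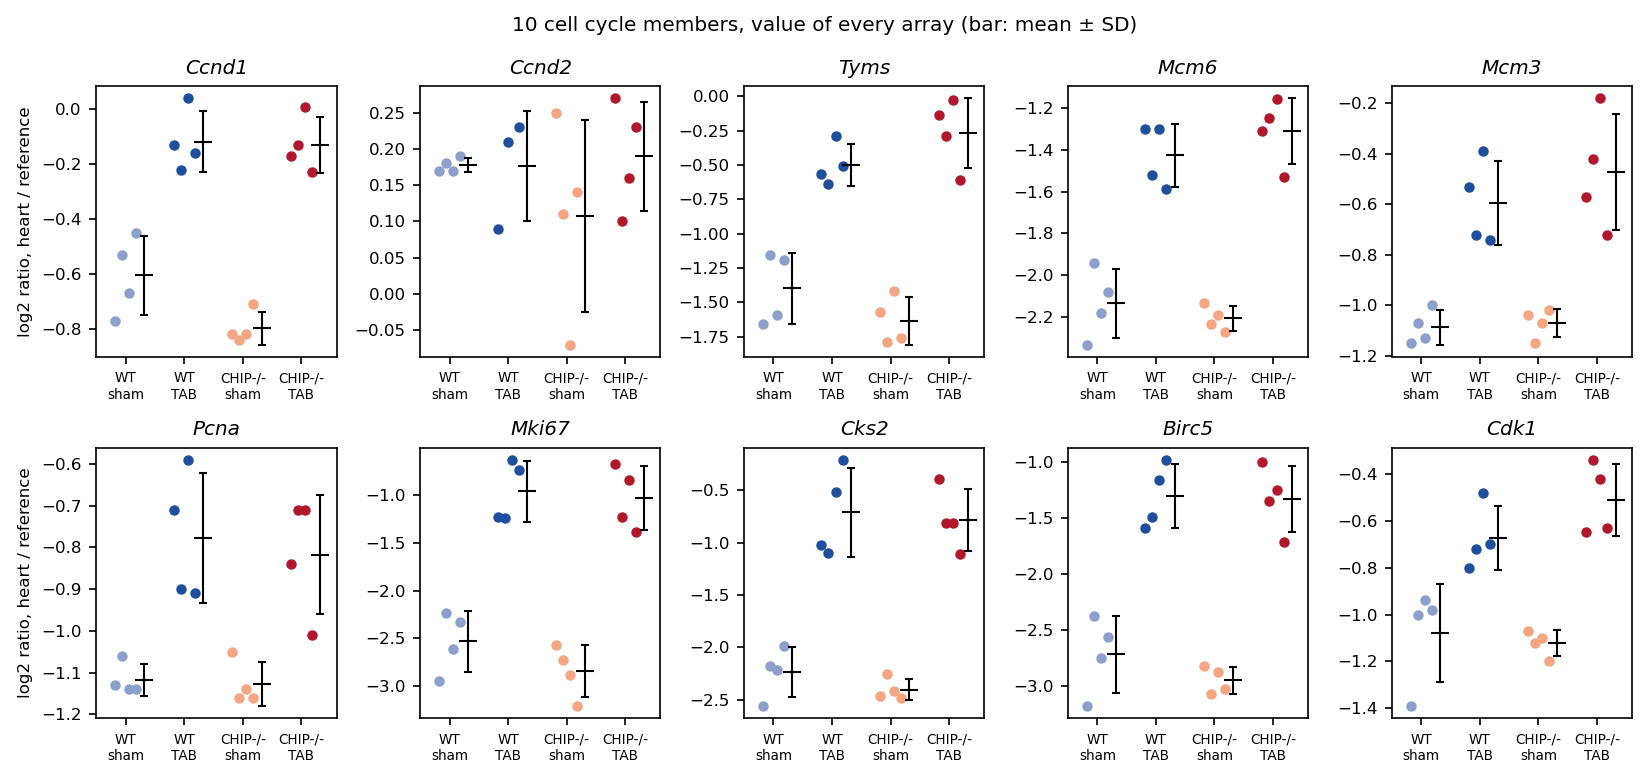
Log2 ratio of heart over reference on every array for 10 members, in the order wild-type sham, wild-type TAB, CHIP-/- sham and CHIP-/- TAB; each vertical scale is the gene's own, points are arrays and bars show the mean and SD of 4 arrays (3 for Ccnd2 in wild-type TAB). TAB points lie above the sham points of their genotype in every panel except Ccnd2.

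The mitotic genes gave the largest differences, led by Mki67, whose product Ki-67 coats mitotic chromosomes and is the standard marker of cycling cells. Mki67 ratios of wild-type hearts were -2.95, -2.24, -2.61 and -2.33 after sham and -1.23, -1.24, -0.63 and -0.74 after TAB. In CHIP-/- they were -2.57, -2.73, -2.88 and -3.21 after sham and -0.67, -1.23, -0.84 and -1.39 after TAB. The gap between the highest sham and the lowest TAB array was wide in both genotypes. Mki67 rose by 1.57 (SE 0.17, adjusted p = 2.9e-07; 2.97-fold) and by 1.81 (SE 0.17, adjusted p = 1.1e-08; 3.51-fold), and a dimmer probe gave 0.92 and 1.02, both called.

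Cks2, a small subunit bound to cyclin-dependent kinases, gave -2.56, -2.18, -2.22 and -1.99 for wild type after sham and -1.02, -1.10, -0.52 and -0.21 after TAB. Its CHIP-/- ratios were -2.46, -2.25, -2.42 and -2.48 after sham and -0.39, -0.81, -0.81 and -1.11 after TAB. It rose by 1.53 (SE 0.16, adjusted p = 2e-07; 2.88-fold) and 1.62 (SE 0.16, adjusted p = 2.3e-08; 3.07-fold). Birc5 encodes survivin, a subunit of the chromosomal passenger complex. Birc5 ratios of wild-type hearts were -3.18, -2.38, -2.75 and -2.56 after sham and -1.59, -1.49, -1.16 and -0.98 after TAB, and those of CHIP-/- hearts -2.82, -3.07, -2.88 and -3.03 after sham and -1.0, -1.35, -1.25 and -1.71 after TAB. It rose by 1.42 (SE 0.15, adjusted p = 2.4e-07; 2.67-fold) and 1.62 (SE 0.15, adjusted p = 9.7e-09; 3.07-fold). For both genes wild-type TAB replicates 3 and 4 stood above replicates 1 and 2, and sham and TAB did not overlap.

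The same order within the wild-type TAB group held for the mean of the 20 mitotic members, which was -0.98, -1.04, -0.61 and -0.57 on replicates 1 to 4. The mean of the 11 S phase members on those arrays was -0.75, -0.84, -0.59 and -0.74, with replicate 3 the highest and replicate 4 beside replicate 1. In the CHIP-/- TAB group replicate 4 was lowest in both, at -1.02 for mitotic and -0.85 for S phase members. The other CHIP-/- TAB arrays lay between -0.82 and -0.65 for mitotic and between -0.69 and -0.50 for S phase members. Sham means were -1.89 to -1.48 (wild type) and -1.80 to -1.72 (CHIP-/-) for mitotic members, and -1.24 to -1.04 and -1.20 to -1.08 for S phase members, so TAB and sham arrays did not overlap in either role. The G1 mean did overlap in wild type, at -0.65 to -0.47 after sham and -0.60 to -0.31 after TAB.

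Further mitotic genes rose in both genotypes. Cdc20, the activator of the anaphase-promoting complex, rose by 1.31 and 1.18 (SE 0.13 each), and Kif20a, a kinesin of cytokinesis, by 1.25 and 1.33 (SE 0.16 each). Ccna2, cyclin A2, rose by 1.18 and 1.05 (SE 0.12 each); it was well above background on 1 wild-type and 2 CHIP-/- sham arrays and on all 8 TAB arrays. Prc1, which bundles microtubules of the central spindle, rose by 1.16 and 1.11 (SE 0.14 each), and Ccnb2, cyclin B2, by 1.01 and 1.00 (SE 0.12 each). Cdca8, which encodes borealin of the passenger complex, rose by 0.89 and 1.11 (SE 0.11 each). The adjusted p of these 6 genes was at most 2.7e-06 (Kif20a in wild type), and their TAB and sham arrays did not overlap. Ccna2 passed the filter only with its TAB arrays counted, which favours a rise. Its adjusted p and lack of overlap are thus no independent support for one.

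Smaller rises were measured for regulators of the spindle. Kif22, a chromosome-binding kinesin, rose by 0.69 and 0.80 (SE 0.12 each), Aurka, a kinase of the spindle poles, by 0.65 and 0.80 (SE 0.15 each), and Cdca3, which takes part in the timing of mitotic entry, by 0.57 and 0.82 (SE 0.12 each). Plk1, the kinase that drives mitotic entry, rose by 0.39 and 0.49 (SE 0.11 each), and its wild-type call was lost without wild-type TAB replicate 4 (0.27). Stmn1 encodes stathmin, which destabilises microtubules; its brightest probe rose by 0.57 and 0.65 (SE 0.10 each), whereas a second probe, above background on all 16 arrays, stood at 0.00 and 0.05 and was not called.

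Several mitotic members were dim. Cdk1, the kinase that triggers mitosis, was well above background on no sham array, on 2 wild-type TAB and on all 4 CHIP-/- TAB arrays. Its wild-type ratios were -1.39, -1.0, -0.94 and -0.98 after sham and -0.80, -0.72, -0.48 and -0.70 after TAB. The CHIP-/- ratios were -1.07, -1.12, -1.10 and -1.20 after sham and -0.65, -0.34, -0.42 and -0.63 after TAB. In the heart channel Cdk1 was 1.31-fold higher in wild type (adjusted p = 0.0037) and 1.53-fold higher in CHIP-/- (adjusted p = 3.6e-05). Its ratio rose by 0.40 and 0.61 (SE 0.10 each), and sham and TAB ratios did not overlap.

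Nusap1, Tpx2 and Tacc3, which organise spindle microtubules, were also not well above background on any sham array. Like Rrm2 and Cdk1, they passed the filter only through TAB arrays, which favours a rise. The adjusted p values of these genes are thus no independent support for one. Nusap1 was measured on 3 arrays of each TAB group. In the heart channel it was 1.60-fold higher in wild type (adjusted p = 3.4e-05) and 1.65-fold in CHIP-/- (adjusted p = 1.3e-05). Tpx2, on 2 arrays of each TAB group, was 1.34-fold (adjusted p = 0.0032) and 1.24-fold higher (adjusted p = 0.0035) in that channel. Tacc3, likewise on 2 arrays, was 1.27-fold (adjusted p = 0.0086) and 1.25-fold higher (adjusted p = 0.0038) in that channel.

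Ube2c, the ubiquitin-conjugating enzyme that works with the anaphase-promoting complex, rose by 0.49 (SE 0.12, adjusted p = 0.0033) in wild type, where 2 sham arrays measured it. In CHIP-/-, where no sham array did, the ratio rose by 0.32 (SE 0.12, adjusted p = 0.036), a difference against a group that was not well above background. That CHIP-/- call was lost without CHIP-/- sham replicate 2 (0.28) or 4 (0.23), or without CHIP-/- TAB replicate 1 (0.30), 3 (0.30) or 4 (0.32). Ube2c too passed the filter only with TAB arrays counted, so its adjusted p values are no independent support for a rise. Cenpa, the histone variant of centromeres, was not called in wild type (0.01, SE 0.11, adjusted p = 0.97) and rose in CHIP-/- (0.34, SE 0.11, adjusted p = 0.011), a call lost without CHIP-/- sham replicate 4 (0.26). The difference between the genotypes was 0.34 for Cenpa (95% interval 0.02 to 0.65, adjusted p = 0.23) and did not pass.

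Without the sham arrays of high Myl7, the wild-type calls of Aurka (0.40), Cdk1 (0.32), Plk1 (0.31) and Tacc3 (0.34) were lost, and 15 of 20 mitotic genes rose. Without the arrays with Y-linked transcripts, the CHIP-/- calls of Mcm7 (0.20), Ube2c (0.12), Cenpa (0.21) and Tacc3 (0.38) were lost. With median centring the mitotic calls lost were those of Cdk1, Plk1, Ube2c, Tacc3 and Stmn1 in wild type and of Plk1, Ube2c, Cenpa and Stmn1 in CHIP-/-. Feature Extraction's processed intensities, which carry no added offset, gave larger differences, with medians of 1.36 and 1.46 over the 20 tested mitotic genes.

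The genotypes were then compared directly. After sham surgery none of the 35 members passed the test between CHIP-/- and wild type by limma, beside 0.0271% of all features (3 of 11058), and 1 member passed an unadjusted p of 0.05. The lowest value was that of Mki67 (-0.32, SE 0.17, adjusted p = 0.70). After TAB none of the 35 passed by limma, beside 11.6% of all features (1281 of 11058), and again 1 passed an unadjusted p of 0.05. The highest was Tyms (0.24, SE 0.12, adjusted p = 0.25) and the lowest Mcm2 (-0.22, SE 0.10, adjusted p = 0.16). Cdk4 was the 1 member whose TAB arrays were higher in CHIP-/- without overlap, beside 6.23% of all features. Its ratios were -0.61, -0.52, -0.41 and -0.59 in CHIP-/- and -0.72, -0.72, -0.61 and -0.73 in wild type, so the gap was smaller than the rounding; its difference of 0.16 (SE 0.09, adjusted p = 0.28) did not pass.

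None of the 35 members passed limma's interaction term, the difference between the genotypes in the response to TAB, beside 5.42% of all features (599 of 11058). At an unadjusted p of 0.05 there were 3, Tyms, Cdk4 and Cenpa. Tyms had the largest value, 0.47 (SE 0.17, 95% interval 0.11 to 0.83, adjusted p = 0.13). It passed without CHIP-/- TAB replicate 4 (0.58, adjusted p = 0.039) and without the sham arrays of high Myl7 (0.72, adjusted p = 0.032). Cdk4 was at 0.33 (SE 0.13, 95% interval 0.06 to 0.59, adjusted p = 0.15). For the other 32 members the 95% interval included 0. Over the 35 intervals the lowest end was -0.53 and the highest 0.83. At 4 arrays a group, differences within a member's own interval are not excluded for that member. For Mki67 the interval was -0.26 to 0.74, for Cks2 -0.37 to 0.56 and for Birc5 -0.24 to 0.65.

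**Figure D3:**
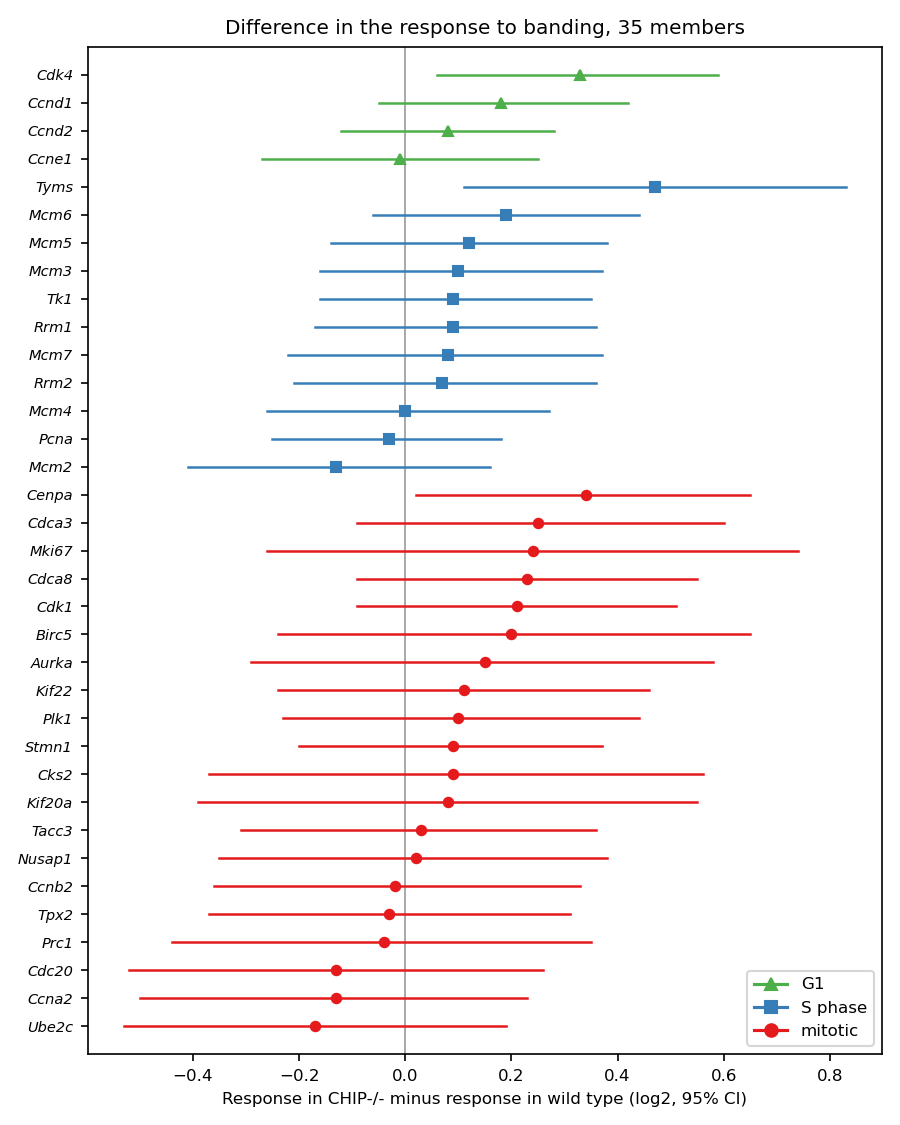
Response to TAB in CHIP-/- minus that in wild type (log2) for the 35 tested members by role, with the 95% confidence interval of limma's fit as a line. Tyms, Cdk4 and Cenpa are the 3 members whose interval lies above 0, and none passes after adjustment over all features.

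Across the 35 members the CHIP-/- response was larger than the wild-type response for 26, and the responses correlated at Pearson's r = 0.953 and Spearman's rho = 0.961. The responses come from separate sham and TAB arrays but share probes and slides of each group, and genes are not independent replicates. Members with a lower ratio to the neonatal reference in wild-type sham hearts had a larger CHIP-/- response (r = -0.771, rho = -0.795). This too is a description, since each probe's brightness enters both values and its dye bias enters the sham ratio.

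Other genes of the cycle were taken from lists that do not overlap the 45. These lists too were chosen with earlier results of these data known. Their counts are therefore a description and no independent check of the members. Of a further 70 genes of mitosis and the cycle, 35 were tested; 25 rose and none fell in wild type, and 25 rose and 1, Bub3, fell in CHIP-/-, beside the 18.7% and 24% of all features that rose. This list also holds Ccnd3 and Cdk6, which act in G1. The filter bears on its counts as well. Of the 70 genes, 23 were well above background on no array, and Cenpi, Melk, Cdkn3 and Spag5 passed with only 4 arrays. A gene raised by TAB passes the filter more readily, and no count without the filter is given for this list. Hmgb2, a chromatin protein abundant in dividing cells, rose by 1.43 and 1.47 (SE 0.11 each), and Cenpe, a kinesin of the kinetochore, by 1.08 and 1.03 (SE 0.13 each). The condensin subunits Smc4 and Ncapg rose by 0.83 and 0.75 in wild type and by 0.79 and 0.98 in CHIP-/-, and Cdca5, which encodes sororin, a cohesin regulator, rose by 0.62 and 0.84.

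Cdk6, the partner of D-type cyclins beside Cdk4, was the 1 gene of that list called between the genotypes. It was called after TAB and in the interaction, 1 of 35 genes tested, beside 11.6% and 5.42% of all features. Cdk6 was picked out after its values were seen, and the values are those of 1 of its 3 probes. Its wild-type ratios were -0.56, -0.49, -0.54 and -0.60 after sham and -0.64, -0.22, -0.22 and -0.23 after TAB. The CHIP-/- ratios were -0.62, -0.50, -0.32 and -0.96 after sham and 0.24, 0.04, 0.37 and 0.16 after TAB. The 4 CHIP-/- TAB arrays lay above all others. Cdk6 was at 0.22 (SE 0.11, adjusted p = 0.13) in wild type and rose by 0.80 (SE 0.11, adjusted p = 3e-06) in CHIP-/-. The interaction was 0.58 (SE 0.16, adjusted p = 0.032), and CHIP-/- exceeded wild type after TAB by 0.53 (SE 0.11, adjusted p = 0.0027).

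Of 52 further genes of DNA replication 35 were tested; 10 rose and 1 fell in wild type, and 14 rose and 5 fell in CHIP-/-. Among all features 18.7% rose and 17% fell in wild type, and 24% rose and 23.2% fell in CHIP-/-. The largest were Prim1, the primase subunit (0.64 and 0.43), Uhrf1, which keeps DNA methylation through replication (0.52 and 0.93), the ligase Lig1 (0.42 and 0.49) and the origin genes Orc6 (0.37 and 0.36) and Cdt1 (0.29 and 0.43). The medians were 0.07 and 0.17, below those of the 11 S phase members and of the other mitotic genes (0.50 and 0.53).

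Of 26 genes that restrain the cycle 19 were tested; 6 rose and 3 fell in wild type, and 7 rose and 4 fell in CHIP-/-. The falls were near the 17% and 23.2% of all features that fell, and 18.7% and 24% of all features rose. Cdkn1a, the cyclin-dependent kinase inhibitor p21, rose by 0.76 (SE 0.16, adjusted p = 0.00059) and 0.66 (SE 0.16, adjusted p = 0.0014). The antiproliferative gene Btg1 rose by 0.35 and 0.62, whereas the stress gene Gadd45a fell by 0.58 and 0.56 and Ccng1, cyclin G1, fell by 0.35 and 0.49. Gadd45g rose by 0.68 in CHIP-/- and was at 0.11, not called, in wild type. Of 23 transcription factors of the cycle 16 were tested; 4 rose and 2 fell in wild type, and 6 rose and 4 fell in CHIP-/-. These wild-type counts and the CHIP-/- falls were near the shares of all features (18.7%, 17% and 23.2%), and 24% of all features rose in CHIP-/-. Mycn rose by 0.42 in both, Nfyb, a subunit of the factor that binds CCAAT boxes, by 0.32 and 0.37, and E2f2 by 0.30 and 0.37, while the repressor E2f6 fell by 0.35 and 0.43 and the E2F partner Tfdp2 fell by 0.30 and 0.57. Foxm1 and E2f1 each passed background on 1 array and Mybl2, which encodes B-Myb, on none, so none of these was tested.

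Markers of other cells of the heart moved in the same comparisons. Among all features 18.7% rose and 17% fell in wild type, and 24% rose and 23.2% fell in CHIP-/-. The endothelial counts in CHIP-/- were near these shares. Of 12 fibroblast markers 9 rose in wild type and 10 in CHIP-/-, and their mean ran from -1.57 to -1.19 (wild-type sham), -1.01 to -0.50 (wild-type TAB), -1.80 to -1.43 (CHIP-/- sham) and -0.34 to -0.10 (CHIP-/- TAB). Of 14 macrophage markers tested of 16, 10 and 13 rose, and their mean ran from -0.09 to 0.03, 0.29 to 0.39, -0.19 to -0.10 and 0.53 to 0.74 in the same order. Of 12 endothelial markers 9 rose and 1 fell in wild type, and 4 rose and 2 fell in CHIP-/-, with means of 0.66 to 0.77, 0.85 to 1.15, 0.65 to 0.76 and 0.75 to 0.90. Of 10 smooth muscle and pericyte markers 7 rose in each genotype, and 1 fell in CHIP-/-; their means were -0.28 to -0.19, 0.19 to 0.42, -0.34 to -0.30 and 0.27 to 0.54.

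Between the TAB groups the fibroblast and macrophage means did not overlap, and CHIP-/- was the higher, while the mitotic mean overlapped (-1.04 to -0.57 in wild type, -1.02 to -0.65 in CHIP-/-). By gene, 5 fibroblast markers and 8 macrophage markers were higher in CHIP-/- than in wild type after TAB and 1 macrophage marker lower. In the same comparison 4 endothelial and 6 cardiomyocyte markers were lower and none higher, and 2 smooth muscle and pericyte markers were higher and 2 lower. Of all features 5.21% were higher and 6.38% lower, and of the 35 members none. Cardiomyocyte markers, which define the labelled tissue, were well above background on all 16 arrays, apart from Ryr2, on at most 12. Their means were 3.30 to 4.04 on the sham arrays, the lowest of them CHIP-/- sham replicate 3, and 3.33 to 3.93 on the TAB arrays. Of 10 tested of 12, 6 fell in wild type, and 9 fell and 1 rose in CHIP-/-, beside 17% and 23.2% of all features that fell. None of 12 lymphocyte markers was well above background on any array, nor were 8 of 10 thymus markers. The part of these cell types in the members' values was not tested.

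**Figure D4:**
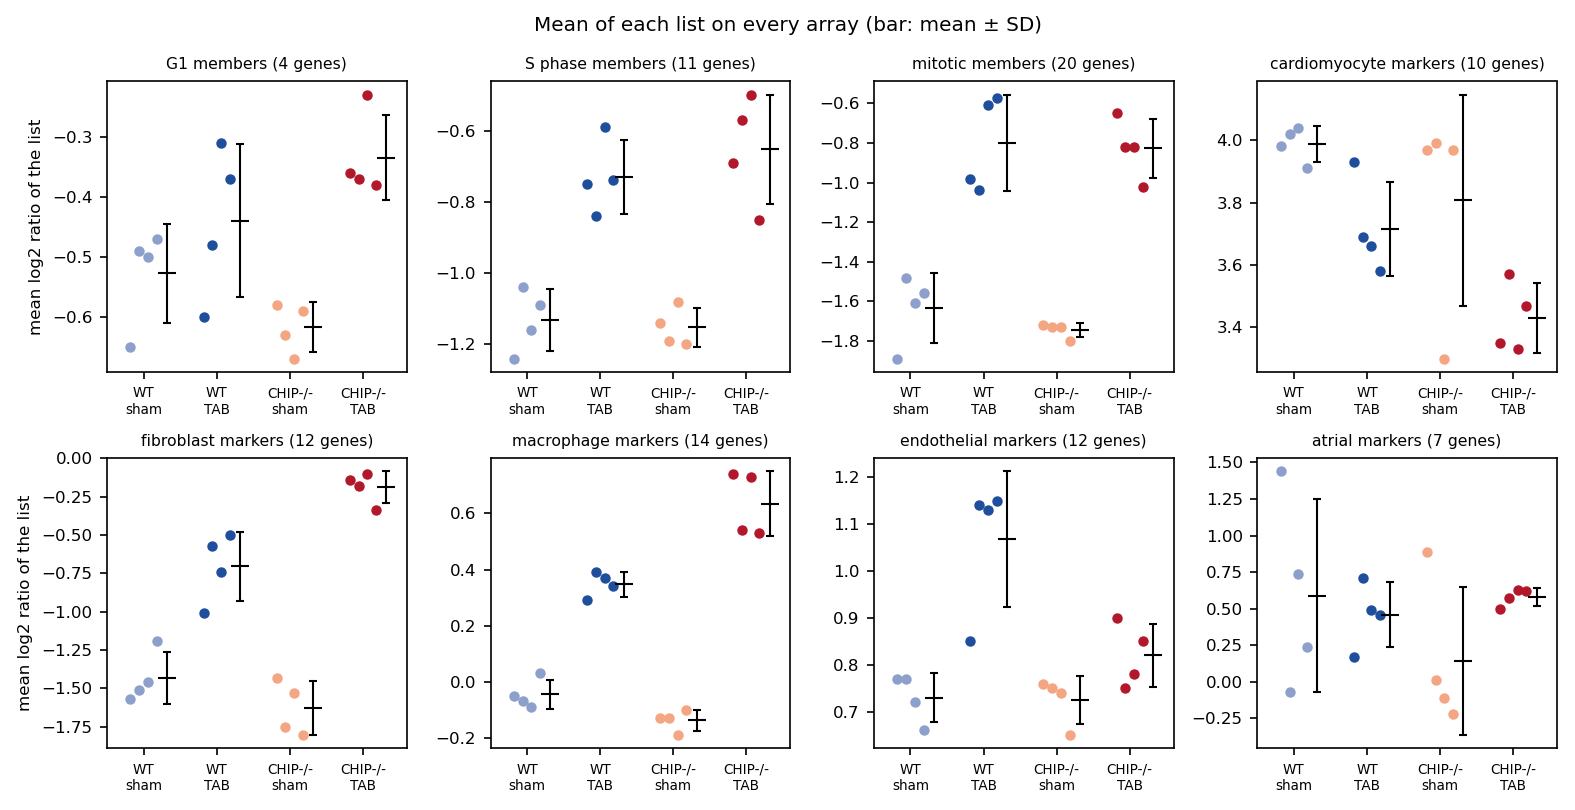
Mean log2 ratio of each list on every array, in the order wild-type sham, wild-type TAB, CHIP-/- sham and CHIP-/- TAB, with the mean and SD of 4 arrays as bars; each vertical scale is the list's own. The mitotic means of the TAB groups overlap (-1.04 to -0.57 and -1.02 to -0.65), whereas the fibroblast and macrophage means of CHIP-/- TAB hearts lie above those of wild-type TAB hearts.

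The 10 members that did not pass the filter were at the limit of detection in these hearts. Top2a, the topoisomerase that untangles chromosomes, was well above background on 1 array (CHIP-/- TAB), and the checkpoint genes Bub1 and Bub1b on 2 wild-type TAB arrays each. Hells, Ccnb1 (cyclin B1), the kinases Aurkb and Ttk, the spindle genes Kif11 and Hmmr, and Anln, which encodes the cytokinesis protein anillin, were well above background on none. In the reference channel 7 of the 10 were well above background on all 16 arrays, Hmmr on 12, Ttk on 2 and Kif11 on none. When the filter was dropped, Ccnb1 (0.49, adjusted p = 0.006), Bub1 (0.46, adjusted p = 0.0028) and Bub1b (0.58, adjusted p = 0.00044) were called higher in wild type and none of the 10 in CHIP-/-; Top2a stood at 0.17 (adjusted p = 0.51) and 0.27 (adjusted p = 0.19). Its wild-type ratios were -0.84, -0.50, -0.84 and -0.68 after sham and -0.44, -0.62, -0.85 and -0.27 after TAB. In CHIP-/- they were -0.53, -0.86, -0.67 and -0.77 after sham and -0.26, -0.73, -0.23 and -0.51 after TAB, and sham and TAB overlapped in both genotypes.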

How the data were processed

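RNA of 16 hearts was measured on two-colour Agilent arrays. Per the file headers, the authors quantified the scans with Agilent's Feature Extraction. The deposited files give linear intensities (mean and local background signal, and processed signal) and a log10 ratio of heart over reference. The deposited series table holds log2 ratios of 14322 probes, which track the arrays' log10 ratios with each probe's median removed. The choice of its probes is not stated in the labels.

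Here, mean intensities were corrected with normexp (offset 50) and normalized by loess within arrays, with control spots at weight 0 and outlier spots left out. The offset shrinks differences of dim probes. Of 41174 probes, the 14908 with a heart signal well above background on 4 or more arrays were kept. The brightest probe stood for a gene, giving 11058 features with 271 missing values. Names came from the files, updated through RefSeq (GRCm38.p6).

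Limma 3.58.1 in R 4.3.3 fitted 1 mean per group over all 16 arrays with an intensity trend, and Benjamini-Hochberg adjustment ran over all features of each of the 5 comparisons. Calls need an adjusted p below 0.05. On simulated data for wild type, 87% of features changed by a log2 of 0.5 and 99% of those changed by 1 were recovered. There were 10 false calls among the features left unchanged, of 11058 in all. The simulation drew noise for each feature independently, had no slide effect and changed 100 features at each size. It does not give the rate of recovery or of false calls in the real comparisons. Alternatives covered background, normalization, filters, probes, the error model, single arrays and the threshold.

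The members and all lists were chosen with earlier results of these data known. Values of every array are given for the 3 largest differences past the threshold in each role and comparison, and for Mki67, Top2a, Pcna, Cdk1, Ccnd1 and Ccnd2; of other cycle lists the 4 largest per comparison and Cdkn1a are named.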

Additional observations from a re-analysis of the deposited data

Results flagged for a closer look

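Within groups of 4 arrays, 9 of 139 member and group combinations had 1 array far from the other 3 by Dixon's criterion; chance gives about 1 in 20. Of these, 5 were wild-type sham replicate 1, the lowest of its group for Rrm2 (-0.94, others -0.79 to -0.76), Cdk1 (-1.39, others -1.0 to -0.94), Plk1 (-1.22, others -0.95 to -0.91), Prc1 (-1.83, others -1.41 to -1.33) and Kif22 (-2.09, others -1.57 to -1.47). That array also had the highest Myl7 ratio (3.82) and the lowest mean of the mitotic members (-1.89). The other 4 were Ccne1 on CHIP-/- TAB replicate 3 (-0.68, others -0.95 to -0.90), Cdk4 on wild-type TAB replicate 3 (-0.61, others -0.73 to -0.72), Tk1 on CHIP-/- sham replicate 4 (-1.31, others -1.13 to -1.10) and Cdca8 on CHIP-/- sham replicate 2 (-2.06, others -2.19 to -2.17).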

How the results depend on the processing

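The count of rising members stayed within 1.5 times the reported one under every alternative run except median centring in wild type (16 against 28). The counts of members that differed between genotypes or in their response stayed at 0 except for the interaction, which had 1 (Tyms) without the 3 sham arrays of high Myl7 and 1 (Tyms) without CHIP-/- TAB replicate 4. Leaving out each array in turn gave 26 to 29 rising members in wild type, 28 to 31 in CHIP-/-, 0 to 0 for each comparison of genotypes and 0 to 1 for the interaction. Reversed values were those of Ccnd2 in wild type with the mean of its probes (-0.19), where the other probes enter, and, with median centring, of Ccnd2 (-0.32) and Pcna (-0.07) in CHIP-/-; the cause of the last ones was not tested. Same-numbered arrays of different groups had correlations of -0.19 to 0.19, 2 of 24 over 0.1. The labels do not say whether the numbers pair animals, and low correlations cannot exclude it. With the replicate block, 31 members rose in wild type, 32 in CHIP-/- and 0 differed in the other 3 comparisons. Over members and alternatives, calls were lost in 28 cases in wild type and 20 in CHIP-/- and gained in 15 and 11, reversed values included. Dim spots limit the 10 untested members and the folds taken from the heart channel.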
